A study of Mus musculus with 2 samples.

Results

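Lhx1, Pax2, Pax8 and Emx2 encode 4 transcription factors of early nephron formation, and their open chromatin was described in single-nucleus ATAC-seq (snATAC-seq) libraries of E15.5 mouse kidneys. The members were the deposited peaks that overlapped the body of one of the 4 genes or the 2 kb upstream of its start. They numbered 18 of 159560 peaks in the Enl-WT library and 13 of 130027 peaks in the Enl-T1 library. Where peaks of both libraries overlapped, they were joined into shared regions, and 11 of the 110706 shared regions belonged to the 4 genes. The genes were 4 of 21951 protein-coding genes in the annotation.

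There were 2 groups with 1 library each. Enl-T1 kidneys were Enl flox-T1/+ Wt1 GFPCre/+ and carried 1 copy of Enl (Mllt1) with a small insertion that is found in Wilms tumour. Enl-WT kidneys were Enl +/+ Wt1 GFPCre/+. Both groups therefore carried the Wt1 GFPCre knock-in, which makes a Cre and GFP fusion from the Wt1 promoter and inactivates 1 copy of Wt1. By the study, the Cre acts in the nephron and stromal lineages, so the ureteric lineage lies outside it. ENL reads acetylated histones and helps RNA polymerase II to elongate. Peak counts cannot show the insertion, so the genotype could not be checked from these files. The study collected embryos of both sexes, and how many embryos went into each snATAC library was not stated in the sources read.

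Nephrons form from mesenchymal progenitors that cap the tips of the branching ureteric epithelium. On a Wnt signal some progenitors commit, aggregate and turn into an epithelial vesicle, which is then patterned into podocytes, proximal tubule and distal tubule. PAX2 and PAX8 are paired-domain factors with overlapping roles, of which PAX2 is present in the ureteric epithelium and in the uncommitted progenitors. LHX1 is a LIM-homeodomain factor that is switched on in the vesicle and needed to pattern it, and EMX2 is a homeodomain factor needed in the ureteric epithelium.

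Of the deposited barcodes, 9472 of Enl-WT and 12635 of Enl-T1 were kept as nuclei. The median nucleus of Enl-WT held 14789.5 counts and that of Enl-T1 8753, and 169 barcodes occurred in both libraries. Nuclei were clustered without the 11 member regions and named from marker genes, so that "-like" classes are labels of this work and may differ from those of the study. Enl-WT had 2445 nephron progenitor-like nuclei and Enl-T1 4404, and 947 and 1875 ureteric epithelium-like nuclei. Proximal tubule-like nuclei numbered 854 and only 118, distal tubule or loop-like nuclei 732 and 100, and podocyte-like nuclei 323 and 0. No cluster was named early nephron-like. The progenitor-like class came from different clusters in the 2 libraries, clusters 2 and 12 in Enl-WT and clusters 0 and 1 in Enl-T1, and a cluster held mostly by 1 library may be a property of that library. A gene's level in a class is its counts scaled to the total of that class in shared regions (CPM). All intervals are 95% intervals for counting error only, nuclei of 1 library are not replicates, and with 1 library a group no difference between the groups could be tested.

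Sequences are shown first for the start sites of the 3 genes with the lowest (Lhx1), the most level (Pax8) and the highest (Emx2) ratio between the libraries in progenitor-like nuclei and then for the regions on which the later results turn. They were read from the reference genome GRCm38.p6, on the strand of the gene and 5′ to 3′, and capitals mark matches to any of 6 short motifs that are spelled out with the motif results. The first 3 are the 250 bases before the annotated start of Lhx1 (chr11:84525536-84525785, minus strand), Pax8 (chr2:24475600-24475849, minus strand) and Emx2 (chr19:59458122-59458371, plus strand).
Lhx1 upstream: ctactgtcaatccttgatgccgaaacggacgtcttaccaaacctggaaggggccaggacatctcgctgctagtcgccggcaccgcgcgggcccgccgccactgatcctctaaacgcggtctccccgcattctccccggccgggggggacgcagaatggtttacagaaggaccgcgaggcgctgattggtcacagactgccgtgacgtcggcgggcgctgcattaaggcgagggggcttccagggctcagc
Pax8 upstream: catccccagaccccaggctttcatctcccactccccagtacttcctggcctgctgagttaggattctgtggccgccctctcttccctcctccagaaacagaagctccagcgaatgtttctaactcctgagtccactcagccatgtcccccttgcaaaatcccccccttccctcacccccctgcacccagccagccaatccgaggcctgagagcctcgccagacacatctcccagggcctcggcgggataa
Emx2 upstream: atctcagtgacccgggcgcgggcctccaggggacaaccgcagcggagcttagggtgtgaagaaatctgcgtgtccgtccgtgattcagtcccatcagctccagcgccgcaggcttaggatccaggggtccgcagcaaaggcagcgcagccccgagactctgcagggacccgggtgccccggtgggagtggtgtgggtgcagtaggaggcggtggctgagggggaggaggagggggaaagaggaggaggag
None of the 3 held a match to any of the 6 motifs, whereas 42.1% of the 21938 coding genes with such a stretch held at least 1.

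The following 2 are the central 300 bases of the Pax2 region with the lowest ratio between the libraries (region 3, chr19:44812707-44813006, plus strand) and of the Pax8 region with the highest (region 1, chr2:24428309-24428608, minus strand). Both are intronic.
Pax2 region 3: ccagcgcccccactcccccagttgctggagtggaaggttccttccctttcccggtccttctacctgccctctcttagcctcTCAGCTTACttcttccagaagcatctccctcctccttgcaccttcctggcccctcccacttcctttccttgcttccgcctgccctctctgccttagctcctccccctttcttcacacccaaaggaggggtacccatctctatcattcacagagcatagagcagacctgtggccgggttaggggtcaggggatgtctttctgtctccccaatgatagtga
Pax8 region 1: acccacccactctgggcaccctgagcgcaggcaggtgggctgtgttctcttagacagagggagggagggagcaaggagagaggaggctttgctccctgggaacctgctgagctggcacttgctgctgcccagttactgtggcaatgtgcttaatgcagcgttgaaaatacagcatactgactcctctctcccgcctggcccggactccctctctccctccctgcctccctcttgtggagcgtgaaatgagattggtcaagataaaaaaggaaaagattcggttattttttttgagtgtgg
The capitals in Pax2 region 3 are a match to the SIX2 motif, named after a factor of progenitors, and Pax8 region 1 held no match.

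In nephron progenitor-like nuclei, as they were classed here, Lhx1 had the lowest ratio of the 4 genes. Its level was 16.1 CPM in Enl-WT (14.3 to 18.1) and 9.71 CPM in Enl-T1 (8.41 to 11.2), and the intervals did not overlap. The log2 ratio of Enl-T1 to Enl-WT was -0.73 (-0.999 to -0.46). Pax2 measured 172 CPM in Enl-WT and 158 CPM in Enl-T1, giving a log2 ratio of -0.13 (-0.20 to -0.06). Pax8 was nearly level, with 62.6 CPM in Enl-WT and 66.4 CPM in Enl-T1 and a log2 ratio of 0.09 (-0.03 to 0.20). Emx2 was the one member with a higher level in Enl-T1 whose interval lay above 0, at 20.4 CPM against 24.1 CPM and a log2 ratio of 0.24 (0.04 to 0.44). The Lhx1, Pax8 and Emx2 values depended on which nuclei formed the class. The Lhx1 ratio was -0.16 with fewer components in the clustering, -0.23 at a lower resolution and -0.084 with doublet-like nuclei removed, all short of 1.5-fold. Under the same settings Pax8 was 0.40, 0.33 and 0.37, and Emx2 was 0.92, 0.68 and 0.91. With classes taken from each nucleus, Lhx1 was -0.64, Pax8 0.17 and Emx2 -0.17.

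Read against all genes, Lhx1 lay near the low end. Of 16435 genes measured in these nuclei, 2.08% were at least 1.5-fold lower in Enl-T1 and 1.42% at least 1.5-fold higher. Of the 4 members, 1 was at least 1.5-fold lower (Lhx1) and 0 were at least 1.5-fold higher. Lhx1 had 1.08% of the genes below its ratio, Pax2 23.9%, Pax8 70.5% and Emx2 90.7%. However, Lhx1 has only 1 shared region, and the ratios of single regions spread more widely than those of genes. The 5th percentile was -0.40 over genes and -0.89 over regions, so that Lhx1 at -0.73 was not among the lowest 5% of regions.

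**Figure D1:**
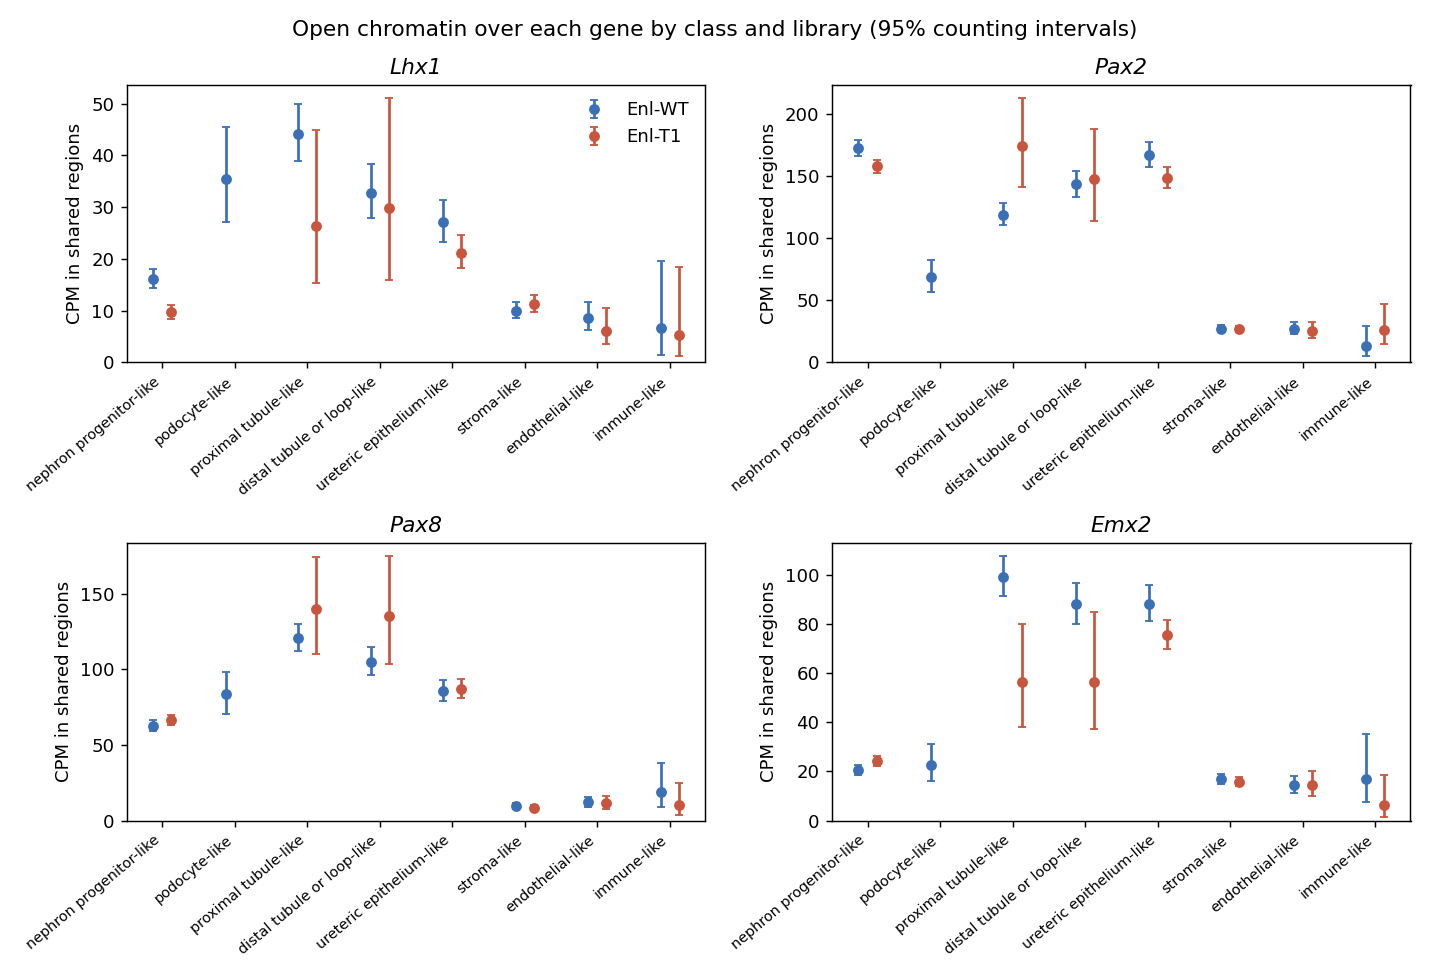
Level of each gene in CPM of shared regions (y axis, linear, own scale per gene) in 8 classes (x axis) of the Enl-WT library (blue) and the Enl-T1 library (red); points are the level of 1 library and bars the 95% counting interval, and Enl-T1 has no podocyte-like nuclei. Lhx1 in progenitor-like nuclei is 16.1 CPM in Enl-WT and 9.71 CPM in Enl-T1, while Pax2 and Pax8 lie close together in that class.

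Lhx1 was more accessible in the tubule-like, podocyte-like and ureteric epithelium-like classes than in progenitor-like nuclei. The proximal tubule-like class also had the highest early nephron marker score of all clusters (0.77). In Enl-WT its level was 44.1 CPM in proximal tubule-like nuclei (38.9 to 49.9), 35.4 CPM in podocyte-like nuclei (27.1 to 45.5), 32.8 CPM in distal tubule or loop-like nuclei (27.9 to 38.3) and 27.1 CPM in ureteric epithelium-like nuclei (23.3 to 31.4). Neighbours among these 4 classes overlapped in their intervals. Nephron progenitor-like nuclei came next at 16.1 CPM, apart from the ureteric class above and from stroma-like nuclei below, which measured 10.0 CPM (8.63 to 11.6). Endothelial-like nuclei at 8.54 CPM and immune-like nuclei at 6.69 CPM overlapped with the stroma. In Enl-T1 the order was distal tubule or loop-like at 29.9 CPM, proximal tubule-like at 26.3 CPM, ureteric epithelium-like at 21.2 CPM, stroma-like at 11.3 CPM (9.81 to 13.0), progenitor-like at 9.71 CPM, endothelial-like at 6.10 CPM and immune-like at 5.26 CPM. Lhx1 in progenitor-like nuclei thus overlapped with the stroma, a lineage that does not form nephrons, in Enl-T1 and not in the Enl-WT class as a whole, although the larger Enl-WT cluster of that class, cluster 2, also overlapped with it, at 10.6 CPM (8.82 to 12.7).

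Pax2 was open throughout the nephron and the ureteric tree. In Enl-WT its level was 172 CPM in progenitor-like nuclei (166 to 179) and 167 CPM in ureteric epithelium-like nuclei (157 to 177), which overlapped, then 143 CPM in distal tubule or loop-like, 119 CPM in proximal tubule-like and 68.5 CPM in podocyte-like nuclei. Stroma-like nuclei had 27.1 CPM, endothelial-like nuclei 27.0 CPM and immune-like nuclei 13.4 CPM. In Enl-T1 the 4 epithelial and progenitor classes ranged from 147 CPM in distal tubule or loop-like to 174 CPM in proximal tubule-like nuclei (141 to 213), with overlapping intervals between neighbours. The other classes of Enl-T1 measured 27.0 CPM in stroma-like, 26.3 CPM in immune-like and 25.02 CPM in endothelial-like nuclei. For Pax2 in proximal tubule-like nuclei, the log2 ratio was 0.55 (0.23 to 0.86), with 192 counts in the 118 nuclei of Enl-T1.

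Pax8 followed the tubules more than Pax2 did. Its Enl-WT level was 121 CPM in proximal tubule-like nuclei (112 to 130) and 105 CPM in distal tubule or loop-like nuclei (96.4 to 115), which overlapped. It was 85.8 CPM in ureteric epithelium-like, 83.6 CPM in podocyte-like and 62.6 CPM in progenitor-like nuclei, and the last was apart from the classes above. Immune-like, endothelial-like and stroma-like nuclei had 19.0, 12.003 and 9.81 CPM. In Enl-T1 the same order held down to the progenitors, with 140, 136, 87.0 and 66.4 CPM for proximal, distal, ureteric and progenitor-like nuclei. There the endothelial-like, immune-like and stroma-like nuclei had 11.4, 10.5 and 8.60 CPM.

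Emx2 was most open in the ureteric epithelium-like and tubule-like classes, and its level in progenitor-like nuclei overlapped with that of the stroma in Enl-WT only. In Enl-WT it measured 99.1 CPM in proximal tubule-like (91.2 to 107), 88.2 CPM in ureteric epithelium-like and 87.9 CPM in distal tubule or loop-like nuclei, all overlapping. Progenitor-like nuclei at 20.4 CPM (18.3 to 22.6) overlapped both with podocyte-like nuclei (16.1 to 31.0) and with stroma-like nuclei at 16.8 CPM (15.0 to 18.8). Immune-like and endothelial-like nuclei had 16.7 and 14.3 CPM. In Enl-T1, Emx2 was 75.4 CPM in ureteric epithelium-like nuclei (69.6 to 81.6) and 56.3 and 56.2 CPM in distal and proximal tubule-like nuclei. Progenitor-like nuclei of Enl-T1 had 24.1 CPM (22.0 to 26.3), apart from the stroma-like nuclei at 15.8 CPM (14.0 to 17.8), and endothelial-like and immune-like nuclei had 14.3 and 6.31 CPM. In proximal tubule-like nuclei the log2 ratio of Emx2 was -0.82 (-1.39 to -0.30), with 62 counts in Enl-T1, and in distal tubule or loop-like nuclei -0.64 (-1.26 to -0.03), with 49 counts.

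Between genes, levels can be compared only per length of peak. In progenitor-like nuclei of Enl-WT, the level per kb of called peak was 28.7 CPM per kb for Pax2, 23.3 for Pax8, 13.1 for Lhx1 and 6.79 for Emx2. In Enl-T1 it was 35.2 for Pax2, 25.1 for Pax8, 9.09 for Emx2 and 8.53 for Lhx1. Pax2 and Pax8 thus led in both libraries, and Lhx1 and Emx2 were not separated in Enl-T1 beyond their counting intervals.

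In the main clustering, Lhx1 was highest in 1 Enl-WT cluster of the progenitor-like class. Cluster 12, with 778 Enl-WT and 7 Enl-T1 nuclei, had 26.9 CPM of Lhx1 (23.0 to 31.5), and cluster 2, with 1637 Enl-WT nuclei, had 10.6 CPM (8.82 to 12.7). Clusters 0 and 1, which held 2469 and 1832 nuclei of Enl-T1, had 8.83 CPM (7.31 to 10.7) and 10.7 CPM (8.49 to 13.4). Both Enl-T1 clusters overlapped with cluster 2 and lay below cluster 12. Leaving out cluster 12 was chosen after the data were seen. As it had the highest Lhx1 and only 7 Enl-T1 nuclei, this raised the ratio by construction. Without cluster 12, the log2 ratio of Lhx1 over the class was -0.13. With classes taken from each nucleus rather than from clusters, it was -0.64. The 96 Enl-T1 nuclei that fell into cluster 2 had 11 counts in Lhx1, or 12.5 CPM (4.99 to 29.6).

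Pax8 and Emx2 did not follow Lhx1 across these clusters. Within Enl-WT, cluster 12 was above cluster 2 by 1.34 log2 for Lhx1 (0.99 to 1.70), 1.06 for Pax8 (0.89 to 1.24), 1.21 for Emx2 (0.90 to 1.52) and 0.23 for Pax2 (0.12 to 0.34). Pax8 measured 45.5 CPM in cluster 2 and 94.8 CPM in cluster 12, and the Enl-T1 clusters 0 and 1 lay between them at 68.2 and 64.8 CPM. Emx2 measured 14.1 CPM in cluster 2 and 32.6 CPM in cluster 12, with Enl-T1 clusters 0 and 1 at 21.5 and 28.9 CPM. On the way from cluster 2 to cluster 12, Pax8 in the Enl-T1 clusters stood at 55.1% and 48.3%, Emx2 at 50.4% and 85.7%, and Lhx1 at -19.6% and 1.41%. Pax8 in both Enl-T1 clusters and Emx2 in cluster 0 were apart from both Enl-WT clusters, whereas Emx2 in cluster 1 was not separated from cluster 12 (log2 ratio -0.17, -0.46 to 0.12) and Lhx1 in neither Enl-T1 cluster was separated from cluster 2. Without cluster 12, which had the highest level of each and was left out after the data were seen, the class ratio was 0.53 log2 for Pax8, 0.77 for Emx2 and -0.05 for Pax2. Pax2 varied least, from 146 CPM in cluster 1 to 191 CPM in cluster 12, with 163 CPM in cluster 2 and 164 CPM in cluster 0.

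The marker genes behind the names moved with these clusters. The 10 progenitor markers summed to 480 CPM in cluster 2, 383 CPM in cluster 0, 363 CPM in cluster 12 and 327 CPM in cluster 1, and 0 of them was at 0 in any of the 4. The 8 early nephron markers, such as Wnt4 and Jag1, summed to 520 CPM in cluster 12, 472 CPM in cluster 0, 461 CPM in cluster 1 and 354 CPM in cluster 2. The 4 clusters thus had the same order for this sum as for Pax8, and cluster 12 was first and cluster 2 last for both. Single markers differed from the sum. Cdh6 had 94.1 and 85.2 CPM in clusters 0 and 1, above 38.7 CPM in cluster 2 and 56.4 CPM in cluster 12. Fgf8 had 6.38 and 8.54 CPM in clusters 0 and 1, below 8.74 CPM in cluster 2 and 10.4 CPM in cluster 12. The part of the markers in the member levels was not tested. Fewer nuclei of a committed kind and less open chromatin per nucleus cannot be told apart in a class sum.

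**Figure D2:**
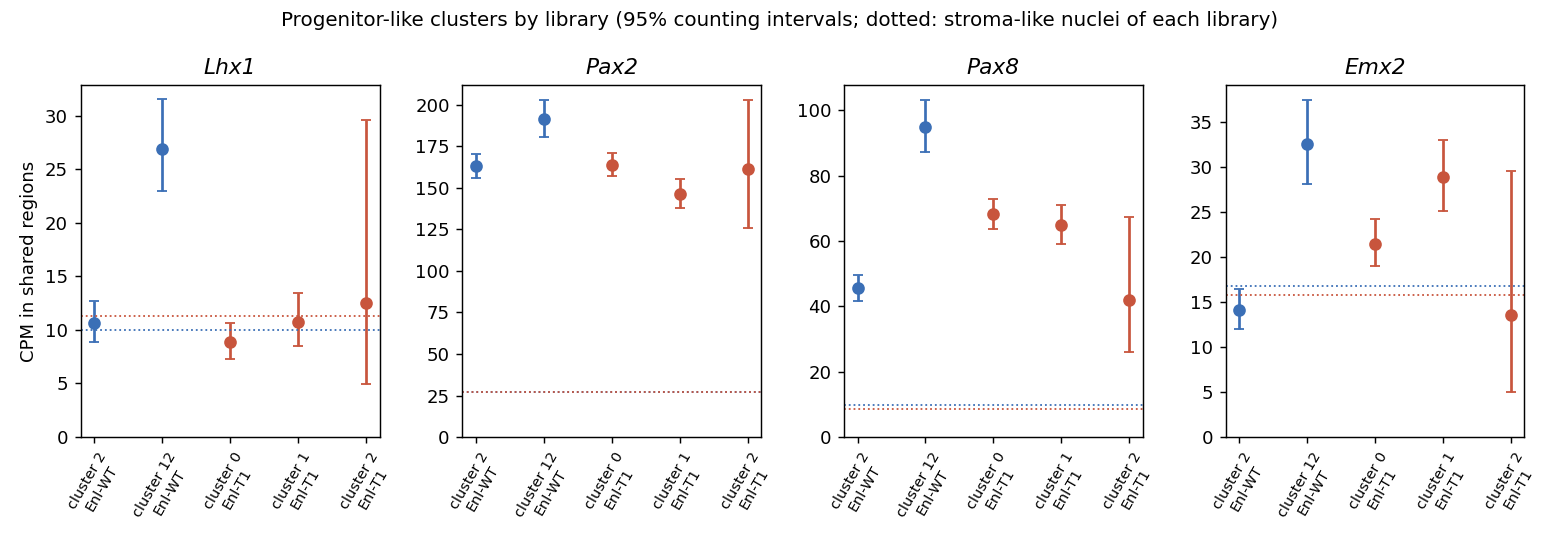
Level of each gene in CPM of shared regions (y axis, linear, own scale per gene) in the progenitor-like clusters of Enl-WT (blue) and Enl-T1 (red), with 95% counting intervals; dotted lines mark stroma-like nuclei of each library. Lhx1 is at 26.9 CPM in Enl-WT cluster 12 and at or below 12.5 CPM in the others, while Pax8 in Enl-T1 clusters 0 and 1 (68.2 and 64.8 CPM) lies between Enl-WT clusters 2 and 12.

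The ureteric epithelium lies outside the Cre lineage by the study. Lhx1 measured 27.1 CPM in Enl-WT and 21.2 CPM in Enl-T1 ureteric epithelium-like nuclei, or a log2 ratio of -0.36 (-0.67 to -0.05). Pax2 had 167 and 148 CPM (log2 ratio -0.17, -0.28 to -0.05), and Pax8 85.8 and 87.0 CPM (0.02, -0.14 to 0.18). Emx2 had 88.2 and 75.4 CPM (-0.23, -0.39 to -0.06), the opposite direction to the progenitor-like class. None of the 4 members passed 1.5-fold, where 0.805% of 15530 genes were at least 1.5-fold higher and 0.522% at least 1.5-fold lower. The difference between the progenitor-like and ureteric log2 ratios was 0.47 for Emx2 (0.21 to 0.72), -0.37 for Lhx1 (-0.77 to 0.03), 0.07 for Pax8 (-0.13 to 0.26) and 0.04 for Pax2 (-0.10 to 0.17). Hence Emx2 alone of the 4 had a difference between the progenitor-like and ureteric classes whose counting interval excluded 0.

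Within the ureteric class, Lhx1 depended on the cluster. In cluster 3, which held 730 Enl-WT and 889 Enl-T1 nuclei, Lhx1 had 29.2 and 28.8 CPM. In cluster 14, with 107 and 573 nuclei, it had 8.10 and 9.89 CPM. In cluster 16, with 110 and 413 nuclei, it had 30.3 CPM (19.2 to 45.5) and 17.7 CPM (12.03 to 25.1). Cluster 14, where Lhx1 was low in both libraries, held a larger share of the Enl-T1 nuclei. The part of the cluster sizes in the class ratio was not tested. Emx2 was 92.5 and 88.7 CPM in cluster 3, 75.2 and 73.9 CPM in cluster 14 and 70.5 and 45.4 CPM in cluster 16. In stroma-like nuclei, where all 4 genes were low, Lhx1 had a log2 ratio of 0.18, Pax2 -0.01, Pax8 -0.19 and Emx2 -0.09.

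Over all nuclei of the kidney, the log2 ratio was -0.66 for Lhx1 (-0.80 to -0.52), -0.42 for Emx2 (-0.51 to -0.33), -0.19 for Pax8 (-0.27 to -0.12) and -0.03 for Pax2 (-0.08 to 0.03). For Emx2 the whole kidney went down while the progenitor-like class went up. The proximal and distal tubule-like nuclei, where Emx2 was high, made up 9.02% and 7.73% of Enl-WT and 0.934% and 0.791% of Enl-T1. Within classes, the log2 ratio of Emx2 was -0.82 in proximal tubule-like, -0.64 in distal tubule or loop-like and -0.23 in ureteric epithelium-like nuclei. The part of the class sizes in the whole-kidney ratio was not tested.

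Of the 11 member regions, 2 were at least 1.5-fold lower in Enl-T1 progenitor-like nuclei and 0 at least 1.5-fold higher. Over all 99637 regions measured, 11.9% were at least 1.5-fold lower and 12.4% at least 1.5-fold higher. The 2 were the only Lhx1 region and Pax2 region 3. Without cluster 12, a choice made after the data were seen, 1 region was lower (Pax2 region 3) and 2 were higher (Pax8 region 1 and Emx2 region 2), and Lhx1 no longer passed. Lhx1 also dropped out with fewer components, a lower resolution or doublet-like nuclei removed. In the first and the last of these, 2 regions were lower, Pax2 regions 3 and 4, and with a higher minimum of counts per nucleus 3 were lower, Lhx1 region 1 and Pax2 regions 3 and 4. With classes taken from each nucleus, 7 regions were measured and Lhx1 region 1 alone was lower. The share of all regions past 1.5-fold was not computed for these alternatives, so their counts have no background. In ureteric epithelium-like nuclei 0 of the 11 passed 1.5-fold in either direction, where 8.26% of 64368 regions were higher and 3.69% lower.

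The single Lhx1 region (chr11:84524851-84526452) held the start site and the 5′ end of the gene, and also overlapped the antisense gene Lhx1os. Since ATAC-seq has no strand, the signal of the 2 genes cannot be told apart. The peaks were 1226 bp wide in the Enl-WT library (chr11:84525227-84526452) and 1138 bp in the other (chr11:84524851-84525988), and per covered base the log2 ratio in progenitor-like nuclei was -0.62. They were offset, with no pair at a reciprocal overlap of 80%, so that the libraries counted partly different windows, which a ratio per base does not correct. The windows are the same for every class of a library, but whether fragments were spread alike within them was not tested. The progenitor-like log2 ratio differed from that in stroma-like nuclei by -0.91 (-1.30 to -0.52). From that in ureteric epithelium-like nuclei it differed by -0.37 (-0.77 to 0.03).

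Pax2 had 5 shared regions. Region 2 (chr19:44756083-44757006), just inside the start and the most counted, measured 59.8 CPM in Enl-WT and 61.3 CPM in Enl-T1 progenitor-like nuclei, a log2 ratio of 0.04 (-0.08 to 0.16). Region 3 (chr19:44812185-44813528), in an intron 56811 bp downstream of the start, had 14.6 and 7.67 CPM, a log2 ratio of -0.93 (-1.22 to -0.64). Unlike Lhx1, it was low in both Enl-T1 clusters against both Enl-WT clusters, at 7.505 CPM in cluster 0 and 8.19 CPM in cluster 1 against 14.9 CPM in cluster 2 and 14.3 CPM in cluster 12. Its Enl-WT peak spanned 1344 bp and its Enl-T1 peak 838 bp, and per covered base the ratio was -0.25. Among all regions whose Enl-T1 peaks were narrower by at least 0.5 log2, 27.1% were at least 1.5-fold lower, against 8.46% where widths were within 10%. The width is the same for every class. In ureteric epithelium-like nuclei region 3 had 7.81 and 7.19 CPM, a log2 ratio of -0.12, so that the class difference was -0.81 (-1.42 to -0.20). Against stroma-like nuclei the difference was -0.51 (-1.23 to 0.21). Region 4, also intronic, went from 7.27 to 4.95 CPM, but with peaks of 1376 and 699 bp the sign turned per covered base, to 0.42. The other regions, upstream (region 1) and near the 3′ end (region 5), had log2 ratios of -0.05 and -0.21 in the progenitor-like class. Region 5, which overlaps another annotated gene (1700039E22Rik), was higher in Enl-T1 proximal tubule-like nuclei, at 69.8 against 36.4 CPM (log2 ratio 0.94, 0.42 to 1.45).

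Pax8 had 3 shared regions of nearly equal width in both libraries. Region 3 (chr2:24475210-24476102), at the start, was level, with 30.4 CPM in both libraries and a log2 ratio of 0.00 at 2 decimals (-0.17 to 0.17). Region 1 (chr2:24427994-24428922), in an intron 47141 bp downstream, was the most counted and had 27.0 CPM in Enl-WT and 31.7 CPM in Enl-T1, giving a log2 ratio of 0.23 (0.06 to 0.40). By cluster, region 1 had 17.2 CPM in cluster 2, 45.5 CPM in cluster 12, 30.5 CPM in cluster 0 and 34.4 CPM in cluster 1. Region 2, also intronic, had the lowest ratio of the 3 in progenitor-like nuclei, -0.23 (-0.67 to 0.20), with 5.18 and 4.42 CPM. In proximal tubule-like nuclei it had 22.6 CPM in Enl-WT and 7.26 CPM in Enl-T1, the latter from 8 counts. Regions 2 and 3 overlap the annotated gene Gm13415, whose signal cannot be separated from that of Pax8.

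Emx2 had 2 shared regions. Region 2 (chr19:59457002-59459067), at the start and the most counted, had 16.1 CPM in Enl-WT and 20.6 CPM in Enl-T1, giving a log2 ratio of 0.36 (0.14 to 0.58). In ureteric epithelium-like nuclei it had 63.4 and 56.8 CPM, so that the class difference was 0.52 (0.23 to 0.81). By cluster, it had 11.1 CPM in cluster 2, 25.6 CPM in cluster 12, 18.4 CPM in cluster 0 and 24.9 CPM in cluster 1. Region 2 held 1 peak in Enl-WT (chr19:59457106-59458905) and 2 in Enl-T1 (chr19:59457002-59457804 and chr19:59458078-59459067), with a gap between the latter. The covered widths were close, at 1800 and 1793 bp, but the libraries counted partly different windows. These windows are the same for every class of a library, but whether fragments were spread alike within them was not tested. Region 1 (chr19:59455274-59456477) upstream of the start, had 4.31 and 3.42 CPM and a log2 ratio of -0.33 (-0.82 to 0.15). With peaks of 1204 and 854 bp, its sign turned per covered base, to 0.16. In proximal tubule-like nuclei region 1 had 25.9 CPM in Enl-WT and 6.35 CPM in Enl-T1, from 7 counts, and in distal tubule or loop-like nuclei 31.3 and 12.6 CPM. The antisense gene Emx2os overlaps both regions, and the 2 genes cannot be told apart.

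**Figure D3:**
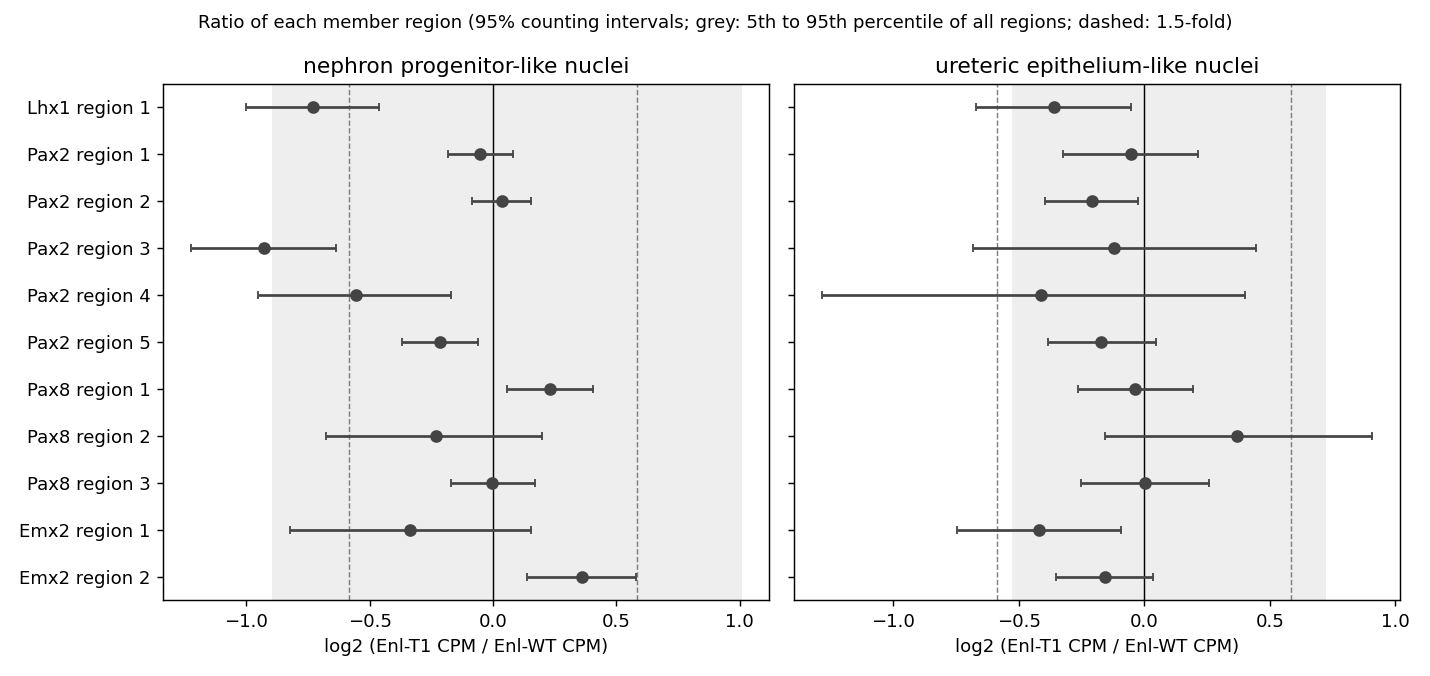
Log2 ratio of Enl-T1 to Enl-WT CPM (x axis) for the 11 member regions (y axis) in nephron progenitor-like (left) and ureteric epithelium-like nuclei (right); bars are 95% counting intervals, grey bands the 5th to 95th percentile of all regions and dashed lines 1.5-fold. Lhx1 region 1 and Pax2 region 3 (-0.73 and -0.93) lie past 1.5-fold on the left, and 0 regions do on the right.

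Some peaks were called in 1 library alone and have no count in the other, which is not the same as a count of 0. Pax2 had 3 such peaks in Enl-WT and 2 in Enl-T1, all in introns, and Pax8 had 4 in Enl-WT and 0 in Enl-T1. Lhx1 and Emx2 had none. More peaks were called in the Enl-WT library, 159560 against 130027, and its median nucleus was deeper. How many of all peaks were called in 1 library alone was not computed, so the counts for Pax2 and Pax8 have no background. In the 2 Enl-T1 peaks of Pax2, 41138 and 67795 bp downstream of the start, progenitor-like nuclei had 12.8 and 10.5 CPM of all peak counts and proximal tubule-like nuclei 17.3 and 18.2 CPM. The 3 Enl-WT peaks of Pax2 had 7.83, 12.8 and 6.23 CPM in progenitor-like and 3.41, 7.62 and 2.83 CPM in proximal tubule-like nuclei. Of the Enl-WT peaks of Pax8, the one at the last exon had 25.1 CPM in proximal tubule-like and 4.55 CPM in progenitor-like nuclei, and the one 22227 bp downstream had 12.5 and 2.43 CPM. The part that the numbers of proximal tubule-like nuclei, 854 against 118, had in these calls was not tested.

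At an equal depth of 2000 fragments, the shares of progenitor-like nuclei differed between the libraries in the same direction as the levels. Each nucleus was thinned to 2000 fragments, and the share of nuclei with at least 1 fragment in the gene's regions was counted. In progenitor-like nuclei this share was 2.99% in Enl-WT (2.34 to 3.74, exact binomial) and 2.02% in Enl-T1 (1.62 to 2.49) for Lhx1. For Pax2 it was 28.4% and 26.5%, for Pax8 11.9% and 12.3%, and for Emx2 3.81% and 4.29%. The separate intervals of the libraries overlapped for all 4 genes. The log2 ratio of the shares was -0.56 for Lhx1 (-1.01 to -0.12, counting error only). For Pax2 it was -0.10 (-0.22 to 0.02), for Pax8 0.05 (-0.14 to 0.25) and for Emx2 0.17 (-0.18 to 0.53). At 1000 fragments the direction turned for Emx2, with 2.29% in Enl-WT and 2.18% in Enl-T1. Before thinning the 4 shares spanned 10.3% to 66.1% of Enl-WT nuclei and 4.65% to 51.8% of Enl-T1 nuclei. In endothelial-like nuclei, which should lack these factors, the thinned shares were 1.73% and 1.25% for Lhx1, 4.67% and 4.63% for Pax2, 2.13% and 2.31% for Pax8 and 3.07% and 2.49% for Emx2, at median depths of 14835 and 7917.5 counts against 16042 and 10026.5 in the progenitor-like class. For Lhx1 and Emx2 the intervals of the progenitor-like and endothelial-like classes overlapped in both libraries. Overlap of separate intervals does not decide whether the shares differ, and that difference was not tested. The CPM intervals of these classes were apart for Lhx1 in Enl-WT and for Emx2 in both libraries, though narrowly for Emx2 in Enl-WT. For Lhx1 in Enl-T1 they overlapped, at 8.41 to 11.2 CPM against 3.53 to 10.4 CPM. The shares for Pax2 and Pax8 lay well above those of endothelial-like nuclei.

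**Figure D4:**
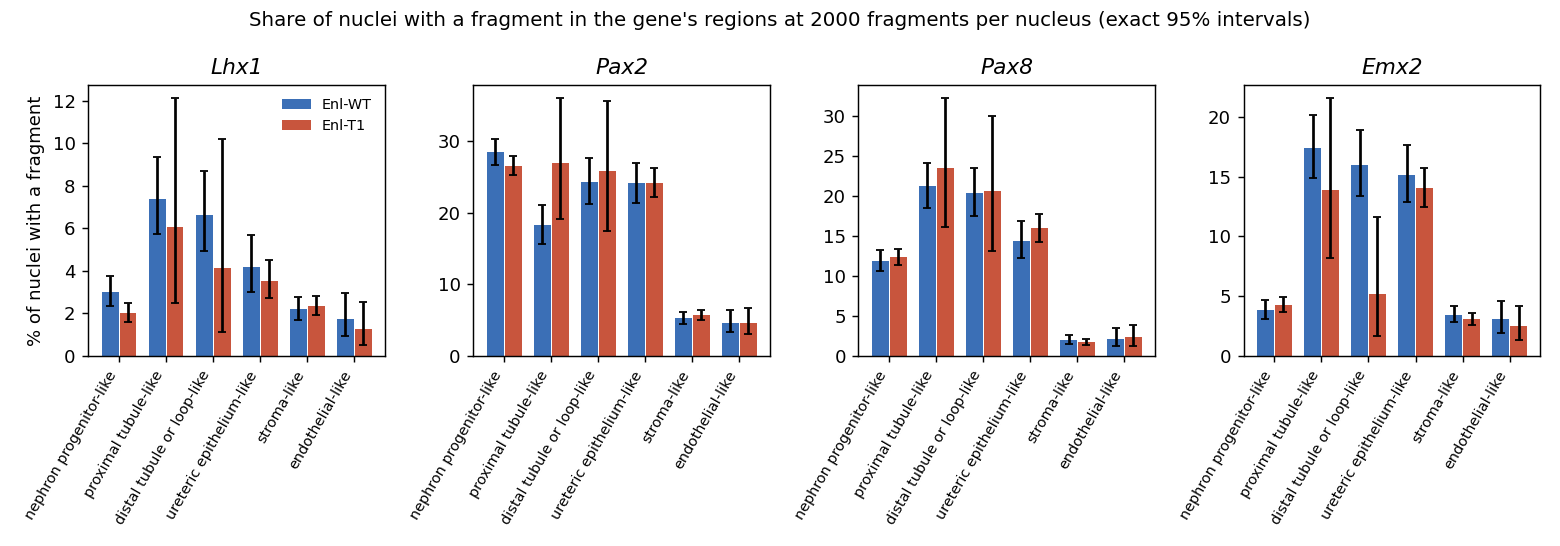
Share of nuclei with at least 1 fragment in the gene's regions after thinning to 2000 fragments (y axis, % from 0, own scale per gene) by class (x axis) in Enl-WT (blue) and Enl-T1 (red), with exact 95% intervals. Pax2 is found in 28.4% and 26.5% of progenitor-like nuclei, and Lhx1 in 2.99% and 2.02%.

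In ureteric epithelium-like nuclei the shares were 4.19% and 3.54% for Lhx1, 24.1% in both libraries for Pax2, 14.4% and 15.9% for Pax8 and 15.2% and 14.0% for Emx2. Few nuclei showed more than 1 of the genes at this depth. At least 2 of the 4 were seen in 6.22% of Enl-WT and 5.61% of Enl-T1 progenitor-like nuclei, in 9.68% and 10.3% of ureteric epithelium-like, in 11.8% and 16.5% of proximal tubule-like and in 0.548% and 0.389% of stroma-like nuclei.

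Motifs were searched on both strands in the central 300 bases of each region. The motifs were CATAAA (HOX9 core), TAATTA (homeodomain core), TCANNTTNC (SIX2), CTTTGA (TCF/LEF core, the nuclear end of Wnt signalling), GCNTGAC (core of the PAX2, PAX5 and PAX8 site) and GCGTGGGNG (WT1 and EGR). The paired core was found in 2 member regions, Pax2 region 1 and Emx2 region 1, and in 11.5% of 110665 regions. The TCF/LEF core was found in 3, Pax2 region 4, Pax8 region 2 and Emx2 region 2, and in 19.3% of all. The SIX2 motif was found in 1, Pax2 region 3, and in 19.8% of all, and the HOX9, homeodomain and WT1 motifs in 0, against 18.4%, 7.43% and 1.27%. In base composition the promoter regions stood out, with an observed to expected CpG ratio of 0.95 for Lhx1 region 1, 0.727 for Emx2 region 2 and 0.581 for Pax2 region 2 against a median of 0.261, while Pax8 region 3 had 0.296.

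Shared regions within 50 kb of the genes were added after the data were seen. Around Lhx1 there were 4, of which 1 was at least 1.5-fold lower and 0 higher. This region, at -37.6 kb from the start, had 6.75 CPM in Enl-WT and 2.74 CPM in Enl-T1 progenitor-like nuclei, a log2 ratio of -1.30 (-1.77 to -0.82). It was 10.6 CPM in cluster 12, 4.70 CPM in cluster 2, 2.29 CPM in cluster 0 and 3.72 CPM in cluster 1, the same first and last clusters as the Lhx1 promoter. In ureteric epithelium-like nuclei it had 6.52 and 5.62 CPM. Around Pax8 there were 14 regions, of which 4 were higher and 1 lower. The largest ratio belonged to a region at -21.7 kb, with 3.45 CPM in Enl-WT and 9.54 CPM in Enl-T1 and a log2 ratio of 1.47 (1.04 to 1.90). Here both Enl-T1 clusters, at 8.71 and 11.4 CPM, lay above both Enl-WT clusters, at 2.62 CPM in cluster 2 and 5.09 CPM in cluster 12. In stroma-like nuclei the same region had 8.18 and 7.37 CPM. A region at -24.9 kb had 4.63 and 10.9 CPM, a log2 ratio of 1.24, and there cluster 12 at 8.57 CPM was close to cluster 1 at 9.36 CPM. Around Pax2 there were 16 regions with 1 higher and 1 lower, and around Emx2 7 regions with 2 higher and 1 lower. The background shares given above for all regions apply to these counts too, and none of these regions is assigned to a gene by the data.

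The central 300 bases of the region upstream of Lhx1 (chr11:84562972-84563271) and of that at -21.7 kb from Pax8 (chr2:24497159-24497458) are shown because they had the lowest and the highest ratio around the 4 genes, both on the minus strand and chosen after their values were seen.
Lhx1 distal: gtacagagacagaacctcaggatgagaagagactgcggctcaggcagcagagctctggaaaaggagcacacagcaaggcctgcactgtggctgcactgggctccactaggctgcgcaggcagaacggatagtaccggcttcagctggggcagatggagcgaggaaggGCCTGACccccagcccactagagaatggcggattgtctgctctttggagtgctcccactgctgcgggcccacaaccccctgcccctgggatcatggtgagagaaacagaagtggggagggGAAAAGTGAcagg
Pax8 distal: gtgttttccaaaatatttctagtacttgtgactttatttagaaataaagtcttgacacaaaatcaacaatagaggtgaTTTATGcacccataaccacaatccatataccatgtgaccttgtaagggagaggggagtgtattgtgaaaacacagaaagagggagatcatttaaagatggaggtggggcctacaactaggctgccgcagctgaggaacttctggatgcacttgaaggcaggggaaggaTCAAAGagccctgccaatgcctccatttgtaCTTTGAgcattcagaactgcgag
The capitals in the first are a paired core and, on the other strand, a SIX2 motif. In the second they are a HOX9 core on the other strand and 2 TCF/LEF cores, 1 on each strand.

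**Figure D5:**
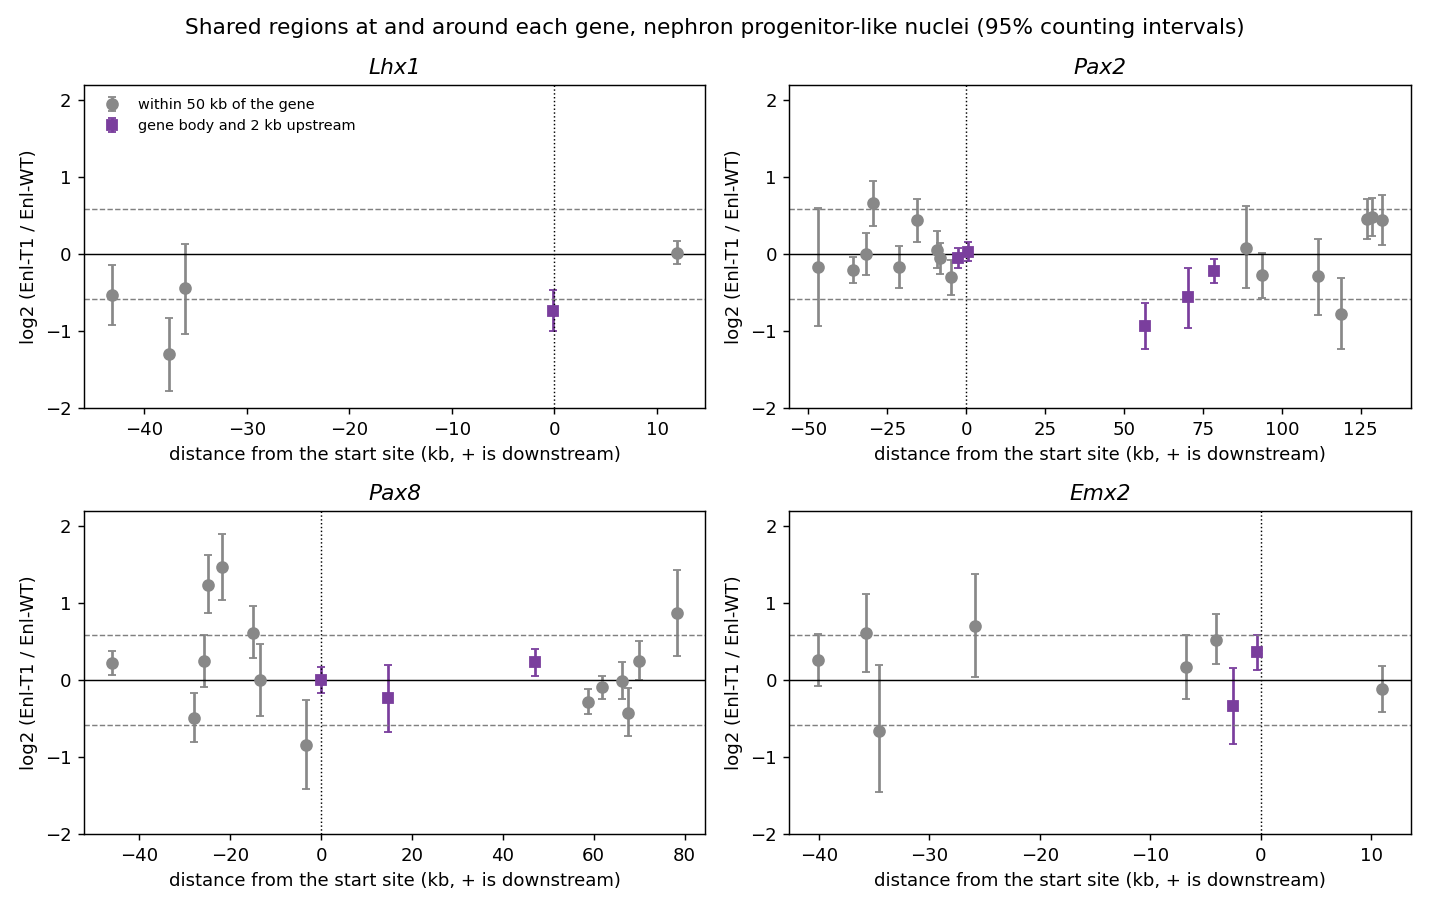
Log2 ratio of Enl-T1 to Enl-WT CPM in nephron progenitor-like nuclei (y axis) against the distance from the start site in kb (x axis) for shared regions in the gene and its 2 kb upstream (purple squares) and within 50 kb (grey circles), with 95% counting intervals and dashed lines at 1.5-fold. The region at -37.6 kb from Lhx1 has a ratio of -1.30 and that at -21.7 kb from Pax8 one of 1.47.

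Other genes of the pathway were described in the same progenitor-like class, with the shares of all genes above as background. Of 20 renal vesicle and commitment genes, 19 were measured, with a median log2 ratio of 0.14, and 1 was at least 1.5-fold higher and 1 lower. The higher one was Cdh6, a cadherin of the early tubule, at 44.8 CPM in Enl-WT and 89.4 CPM in Enl-T1 (log2 ratio 1.00), and the lower one Lfng, a modifier of Notch, at 53.2 and 34.0 CPM (-0.65). Next to them stood Lef1, a Wnt effector, at 0.39 on the high side, and Fgf8, a growth factor of the vesicle, at -0.43 and Pou3f3, a factor of the distal nephron, at -0.35 on the low side.

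Of 19 transcription factors of the intermediate mesoderm and of progenitors, 18 were measured with a median of -0.01, 0 higher and 1 lower, which was Uncx at -0.65. The next were Mecom at 0.47, Hoxa11 at 0.31 and Gata2 at 0.27, and on the low side Six2, which keeps progenitors self-renewing, at -0.27 and Eya1, its partner, at -0.22. Of 19 Pax, LIM and Emx paralogues outside the 4 genes, 18 were measured with a median of -0.02, 0 higher and 1 lower, which was Lhx4 at -0.62. Pax1, Isl1 and Pax9 had 0.36, 0.34 and 0.26, and Emx1 and Lmx1b -0.30 and -0.29. Of 10 genes for protein partners, 9 were measured with a median of 0.02 and 0 past 1.5-fold. These included Ldb1, which binds LIM domains, at 0.15, Rlim, which degrades LDB1, at -0.17, Tle4, a Groucho co-repressor, at 0.36, and the histone methyltransferase genes Kmt2c at -0.04 and Kmt2d at -0.01, with Ncoa6 at 0.04. The median of all genes was 0.00 at 2 decimals.

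As a description over 16 class and library sums, which share depth within a library, the genes most like Lhx1 were Rnd3, Gm28040 and Dsp (Pearson's r of log2(CPM + 1) 0.95, 0.95 and 0.94). For Pax2 they were Gprc5c, Baiap2l1 and Bri3 (0.98, 0.97 and 0.95), for Pax8 Casr, C330021F23Rik and Zfp612 (0.98, 0.98 and 0.97) and for Emx2 Spdef, Mpzl2 and Sh3yl1 (0.96, 0.96 and 0.95). Among the members, Pax2 and Pax8 were most alike (0.87), then Lhx1 and Emx2 (0.83), and Lhx1 and Pax8 least (0.58).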

How the data were processed

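Nuclei of E15.5 mouse kidneys were profiled by snATAC-seq in 1 Enl-WT and 1 Enl-T1 library. Per the labels, reads were aligned to mm10 with Cell Ranger ATAC 2.1.0. Peaks were called per library, and the authors deposited raw counts per peak and barcode. In these deposited counts 91.1% (Enl-WT) and 88.0% (Enl-T1) of the listed values were even, so that 2 counts stand for about 1 fragment. Because each library was counted over its own peaks, a wider peak collects more counts, and ratios per covered base were computed beside the main ones.

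Barcodes with 2000 to 100000 counts were kept, which left out 156 Enl-WT and 741 Enl-T1 barcodes. The kept nuclei held 138015168 and 109444579 counts. The filters of the study on fragments, blacklisted regions and start sites need fragment files and were not applied, and doublets were removed only as an alternative. Peaks overlapping by at least 1 bp were joined, and 88.8% of Enl-WT counts and 94.9% of Enl-T1 counts fell into shared regions. Nuclei were clustered with leidenalg 0.10.2 (igraph 0.11.9) at resolution 1 with 15 neighbours, on components 2 to 30 of latent semantic indexing (scikit-learn 1.9.0, numpy 2.4.6) of regions open in at least 0.5% of nuclei, without the member regions and without a step to integrate the libraries. Clusters took the class with the highest mean marker score. Clusters 13 and 17 stayed unnamed, and the scoring rule, with a minimum of 50 CPM for leading genes in place of 20, was chosen once the clusters were known.

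Gene levels were summed over shared regions in the gene body and 2 kb upstream (GENCODE M21). Intervals were exact Poisson for levels, exact conditional binomial for ratios, both on counts divided by 2, and Clopper-Pearson for shares (scipy 1.17.1). A fold of 1.5 took the place of a test, over regions with at least 100 and genes with at least 200 counts in both libraries together. Named regions were those at each start site, the most counted and the highest and lowest ratio of each gene, and the 3 highest and 3 lowest genes of each list were named, except for 1 that is not reported here. The interval and ratio code was tested on simulated data. The members and the gene and marker lists were chosen with earlier results of these data known. Alternatives varied the fold, the count minimum, the region definition, the peak matching, the clustering and the class assignment.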

Additional observations from a re-analysis of the deposited data

Results flagged for a closer look

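In the main classes, Emx2 went in opposite directions. Its log2 ratio of Enl-T1 to Enl-WT was 0.24 in nephron progenitor-like nuclei and -0.23 in ureteric epithelium-like nuclei, where each class has 1 library per group. The difference between the ratios was 0.47, with a 95% interval for counting error of 0.21 to 0.72, and it was not tested between replicates. With classes taken from each nucleus, both ratios were below 0, at -0.17 and -0.32, and with fewer components, a lower resolution or doublet-like nuclei removed the progenitor-like ratio was 0.92, 0.68 and 0.91. Emx2 in progenitor-like nuclei differed between clusters of 1 library as well, at 14.1 CPM in cluster 2 and 32.6 CPM in cluster 12 of Enl-WT.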

How the results depend on the processing

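No paired analysis was possible because each group has 1 library. Log2 ratios of Lhx1, Pax8 and Emx2 in nephron progenitor-like nuclei moved most with the nuclei that made up the class, and that of Pax2 with the covered bases. With components 2 to 15 they were -0.16 for Lhx1, 0.40 for Pax8 and 0.92 for Emx2, with a resolution of 0.5 -0.23, 0.33 and 0.68, and with doublet-like nuclei removed -0.084, 0.37 and 0.91. With classes taken from each nucleus, Lhx1 was -0.64, Pax2 -0.20, Pax8 0.17 and Emx2 -0.17. From the start region alone Pax2 was 0.036. The following were chosen after seeing the data. With components of equal variance the ratios were -0.10 for Lhx1, 0.41 for Pax8 and 0.68 for Emx2. Without cluster 12 they were -0.13 for Lhx1, -0.046 for Pax2, 0.53 for Pax8 and 0.77 for Emx2. In cluster 2 alone, which has 96 Enl-T1 nuclei, Lhx1 reversed to 0.24, and Pax2, Pax8 and Emx2 were -0.017, -0.12 and -0.051. Per covered base, Pax2 was 0.29 in progenitor-like and 0.26 in ureteric epithelium-like nuclei, and Emx2 was -0.044 in the latter, where peaks differ in width by construction. In ureteric epithelium-like nuclei with classes from each nucleus, Pax2 was -0.32.

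The 2 member regions past 1.5-fold lower became 3 with a higher minimum of counts per nucleus, 0 at a fold of 2, 0 of 5 measured with a reciprocal overlap of 80%, and 1 per covered base, with a resolution of 0.5, with classes from each nucleus, with equal variance and without cluster 12. The count of 0 higher became 2 with components 2 to 15, with doublet-like nuclei removed, with equal variance and without cluster 12, and 1 with a resolution of 0.5. The share of all regions past the fold was not computed under these settings. The reciprocal overlap gave no value for Lhx1 and Emx2, which had 0 matched pairs. At 1000 fragments per nucleus, Emx2 was in 2.29% of Enl-WT and 2.18% of Enl-T1 progenitor-like nuclei. The cause of these shifts was not tested. In ureteric epithelium-like nuclei, Lhx1 and Pax8 stayed within their counting intervals. For the gene lists, a minimum of 50 counts per gene was the one alternative run, and it left the counts past 1.5-fold as they were. The number of nuclei, 118 and 100, limits the tubule-like classes of Enl-T1.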
